A study of Mus musculus with 12 samples.

Results

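The 10 genes chosen were Hspa1a, Hspa1b, Hspa2, Hspa8, Hspb1, Hsph1, Dnajb1, Hsp90aa1, Hspd1 and Hsf1, a group named for its cytosolic heat shock chaperones, and every array probe annotated to one of them was taken. Of these 10 genes, 9 had an annotated probe, and Hsf1, the transcription factor that drives most of their heat induction, is not analysed here. The 9 genes had 19 probes among the 45281 probes of the table, and 15 of the 19 were kept because they were detected on at least 3 arrays. All 9 genes were therefore among the 11445 tested, of 19057 genes with a probe. Hspd1 encodes a chaperonin of mitochondria, not of the cytosol, and is described apart from the others.

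The study exposed mouse embryonic stem cells to panobinostat (LBH589), a hydroxamate inhibitor of histone deacetylases, and measured RNA on Illumina bead arrays. The cells were E14, a wild-type male line of 129/Ola origin, grown without feeder cells on gelatin in serum medium with LIF. They had been in 50 nM panobinostat for 2 h, 6 h or 18 h, or were untreated (0 h), with 3 arrays in each of the 4 groups. Neither a vehicle nor untreated cells kept for the same number of hours is named, so drug and handling or time in culture cannot be told apart. The labels do not say whether the 3 replicates were separate cultures, so every p-value measures the spread between these arrays, which may be technical.

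Heat shock proteins keep other proteins folded. Hsp70 proteins bind exposed hydrophobic stretches of a client, J-domain partners such as Dnajb1 bring clients and start ATP hydrolysis, and exchange factors such as Hsph1 release the nucleotide so that the client can leave. When unfolded protein accumulates, the factor HSF1 is freed from chaperones, forms trimers and binds heat shock elements, arrays of inverted GAA units, upstream of these genes.

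The promoter sequences are given for the genes whose upstream windows hold the heat shock element core. The windows come from RefSeq on build GRCm38.p6, and 7 of the 10 genes have an entry. Those of Hspa8, Hsp90aa1 and Hsf1 are not used here. The 250 bases upstream of each annotated start were searched for a pair of inverted units, GAANNTTC or TTCNNGAA, each of which reads the same on both strands. A match in any of its windows was found for 5 of the 7 genes. Of all 32851 windows (27025 genes) 12.8% hold a match, a share per window and not per gene. A run of 3 inverted units, which contains 2 overlapping pairs, was found for Hspd1 alone of the 7, and 0.466% of all windows hold one. The stretch marked for Hspd1 holds 2 such runs that overlap, with 3 pairs over 18 bases. A match describes letters in a window and is not a measured binding site. Capitals mark the matched units, and each sequence reads 5′ to 3′ on the strand of its gene.
Hspa1a, chr17:34972157-34972406, minus strand: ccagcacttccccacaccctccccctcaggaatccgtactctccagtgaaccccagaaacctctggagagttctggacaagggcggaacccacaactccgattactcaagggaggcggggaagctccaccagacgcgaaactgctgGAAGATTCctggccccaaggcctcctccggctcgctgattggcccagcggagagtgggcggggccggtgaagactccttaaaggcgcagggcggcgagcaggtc
Hspa1b, chr17:34959239-34959488, minus strand: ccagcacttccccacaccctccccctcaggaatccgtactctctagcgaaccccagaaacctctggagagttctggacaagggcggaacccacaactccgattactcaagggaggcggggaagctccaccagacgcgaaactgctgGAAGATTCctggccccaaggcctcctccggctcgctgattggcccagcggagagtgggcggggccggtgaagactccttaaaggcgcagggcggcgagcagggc
Hspb1, chr5:135887669-135887918, plus strand: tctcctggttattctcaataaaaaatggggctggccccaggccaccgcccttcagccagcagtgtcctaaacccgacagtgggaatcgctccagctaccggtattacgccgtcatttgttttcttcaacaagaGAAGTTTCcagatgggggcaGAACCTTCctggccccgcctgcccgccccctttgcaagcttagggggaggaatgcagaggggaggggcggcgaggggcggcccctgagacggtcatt
Hsph1, chr5:149636337-149636586, minus strand: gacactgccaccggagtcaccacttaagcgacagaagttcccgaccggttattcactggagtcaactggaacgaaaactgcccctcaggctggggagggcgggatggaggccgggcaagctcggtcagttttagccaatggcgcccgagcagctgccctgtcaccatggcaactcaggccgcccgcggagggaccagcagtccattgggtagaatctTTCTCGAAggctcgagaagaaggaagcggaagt
Hspd1, chr1:55088053-55088082, minus strand: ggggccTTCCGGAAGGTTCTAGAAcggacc

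The windows of Hspa1a and Hspa1b are identical at 247 of 250 bases, and in both the pair lies 104 to 97 bases upstream of the start. The genes follow each other on chromosome 17 with 0 RefSeq genes between them, and Hspa1l follows Hspa1a in the same way. The window of Hspb1 holds 2 pairs between 117 and 90 bases upstream, and the Hsph1 window holds 1 pair 33 to 26 bases upstream of the first of its annotated starts. The short stretch shown for Hspd1 lies in the window of one annotated start and downstream of the other. No match was found in the windows of Hspa2 and Dnajb1, which says only that these letters are absent there.

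Signals are given as log2 of the background-corrected, quantile-normalized intensity, and each change is a difference of group means on that scale with its standard error (SE). A gene is said to have risen or fallen where limma's moderated test gave a Benjamini-Hochberg adjusted p under 0.05 over all 11445 genes. Levels are not set against each other between probes, because brightness depends on the probe. RNA was taken from whole cultures, so a smaller number of cells of one kind and less RNA per cell cannot be told apart.

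Mean raw signal lay between 307.3 and 482.7 and between 16813 and 18111 probes were detected per array, and the number of arrays limits the precision (median SE 0.20 over all genes). Correlations of log2 values were 0.97 to 0.989 within groups and 0.889 to 0.983 between groups. Of the 10 embryonic stem cell markers, 9 were detected on all 12 arrays. Their summed signal was 50430 to 62130 at 0 h, 44400 to 54400 at 2 h, 36800 to 41010 at 6 h and 36080 to 44460 at 18 h. The sum is carried by the brightest markers. At 6 h and at 18 h against 0 h, 7 of the 9 tested stem cell markers fell, with median changes of -1.53 and -2.28. Over all tested genes 13.6% fell at 6 h and 15.7% at 18 h. The summed signal of 9 fibroblast markers was 582.3 to 959.4 at 18 h, against 132.1 to 292.9 at 0 h, with 4 of the 9 detected on 0 arrays. That of blood and endothelial markers was 1000 to 1486 at 18 h, against 2515 to 3453 at 0 h, with 2 of 8 detected on 0 arrays. Endoderm markers lay at 357.3 to 479.9 at 18 h, against 392.4 to 436.6 at 0 h, with 4 of 9 detected on 0 arrays. Trophectoderm markers lay at 1431 to 2090 at 18 h, against 1989 to 2249 at 0 h, with 1 of 7 detected on 0 arrays. The stem cell, fibroblast and blood and endothelial sums did not overlap between 18 h and 0 h, while the endoderm and trophectoderm sums did. The part of these markers in the changes of the heat shock genes was not tested.

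The heat-inducible Hsp70 genes and their testis relative rose at every exposure time, the J-domain gene Dnajb1 rose 1.95-fold to 2.20-fold at each time, and the mitochondrial chaperonin gene Hspd1 fell at 18 h. At 2 h against 0 h, 4 of the 9 genes rose and 0 fell, against 2.41% of all tested genes that rose and 1.07% that fell. At 6 h against 0 h, 5 of 9 rose and 0 fell, against 17.7% and 13.6% of all genes. At 18 h against 0 h, 4 of 9 rose and 1 fell, against 20.9% and 15.7%. The median change of the 9 genes was 0.65 at 2 h, 0.94 at 6 h and 0.35 at 18 h, where the median over all genes was -0.00, 0.02 and 0.05. These 3 comparisons share the same 0 h arrays. Hspa1b, detected on 1 of 3 arrays at 0 h, met the detection filter only through treated arrays. The counts of rises are therefore partly set by the filter.

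**Figure D1:**
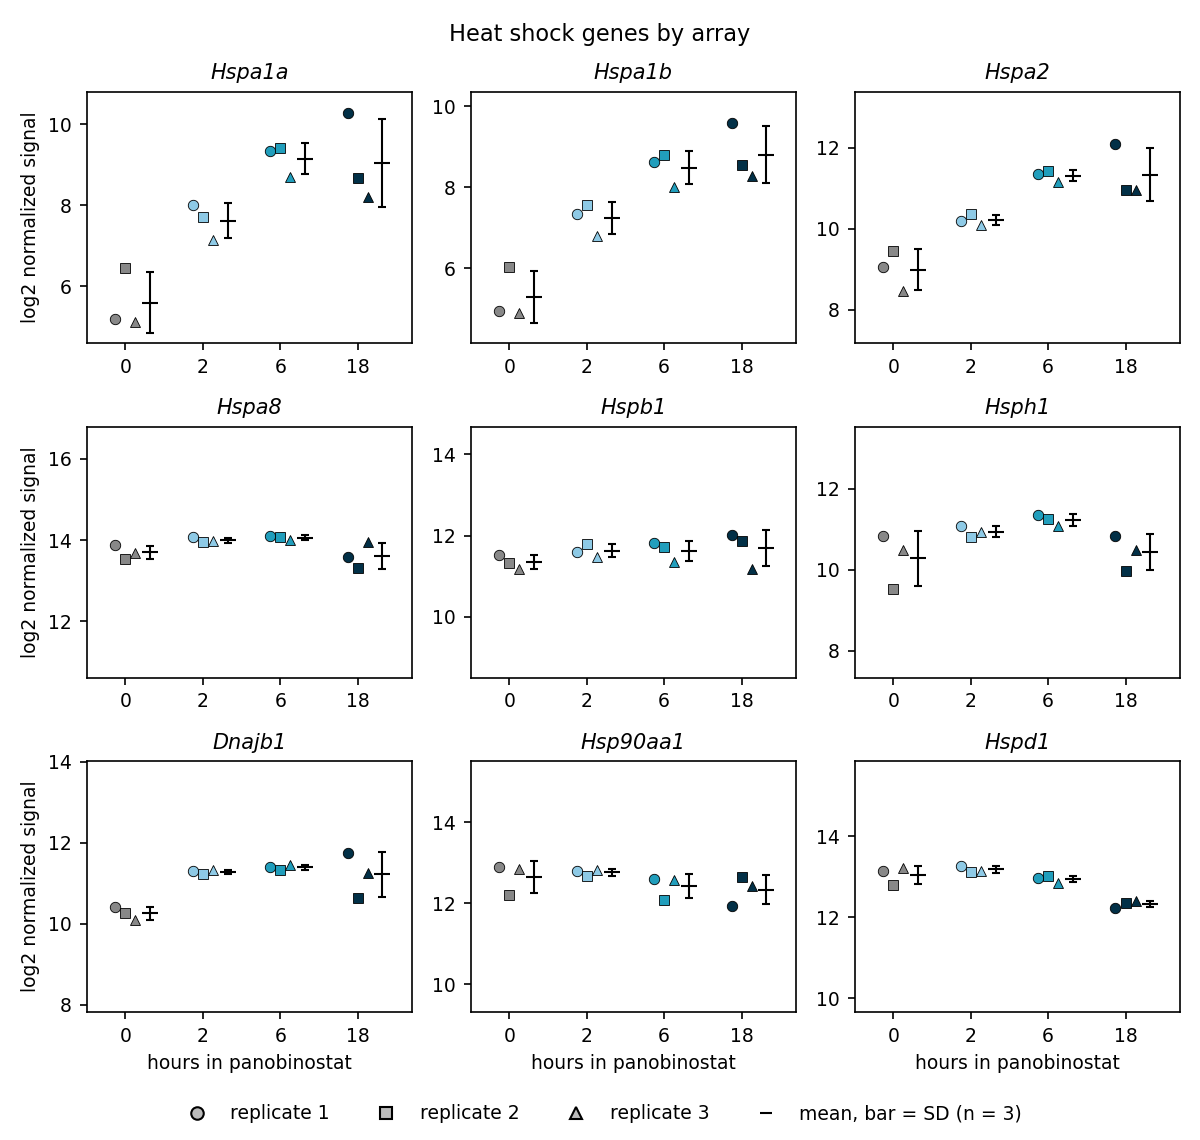
Log2 normalized signal (vertical axis, each panel spanning the same number of log2 units) of the 9 heat shock genes on each of the 12 arrays, by hours in panobinostat on evenly spaced positions. Symbols mark the replicate number and bars the group mean with its SD (n = 3). Hspa1a, Hspa1b and Hspa2 lie above all 0 h arrays from 2 h on, and Hspd1 lies below them at 18 h.

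Hspa1a encodes the stress-inducible Hsp70, which is near absent from most unstressed cells. Its log2 signal was 5.20, 6.46 and 5.12 at 0 h, 8.00, 7.72 and 7.14 at 2 h, 9.33, 9.41 and 8.71 at 6 h, and 10.27, 8.68 and 8.21 at 18 h. All treated arrays lay above all untreated ones, untreated replicate 2 stood above the other untreated arrays, and 18 h replicate 1 was the highest of the 12. Hspa1a rose by 2.03 (SE 0.47, adjusted p = 0.0338), 3.55 (adjusted p = 0.000174) and 3.46 (adjusted p = 0.000142) at 2 h, 6 h and 18 h, a linear 4.08-fold, 11.7-fold and 11.0-fold. It ranked 9th, 7th and 16th among all 11445 genes by rise. Without 18 h replicate 1 the rise at 18 h was 2.85 (adjusted p = 0.000396). The probe lies near background at 0 h, so the size of the rise rests on the background correction: without it the changes were 0.94 (adjusted p = 0.176), 2.08 and 2.02, and the last 2 still passed. With a larger offset of 50 they were 1.46 (adjusted p = 0.0615), 2.84 and 2.76, and as the mean of its kept probes 1.26 (adjusted p = 0.0567), 2.02 and 2.14.

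Hspa1b encodes an Hsp70 protein that is almost the same as that of Hspa1a, and whether each probe reads its own gene alone was not tested. Its signal was 4.95, 6.02 and 4.90 at 0 h, 7.34, 7.57 and 6.80 at 2 h, 8.63, 8.79 and 8.01 at 6 h, and 9.59, 8.54 and 8.28 at 18 h. The groups at 2 h, 6 h and 18 h did not overlap the 0 h group, in which the probe was detected on 1 of 3 arrays. Hspa1b rose by 1.95 (SE 0.37, adjusted p = 0.013) at 2 h, 3.19 (adjusted p = 7.64e-05) at 6 h and 3.51 (adjusted p = 2.39e-05) at 18 h. Without background correction these were 0.80 (adjusted p = 0.096), 1.64 and 1.91, of which the last 2 passed. With the offset of 50 they were 1.32, 2.40 and 2.70, and all passed.

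Hspa2 encodes an Hsp70 that is most abundant in testis, where male meiosis needs it. Its signal was 9.05, 9.46 and 8.46 at 0 h, 10.19, 10.35 and 10.10 at 2 h, 11.34, 11.43 and 11.16 at 6 h, and 12.09, 10.95 and 10.96 at 18 h. No treated array overlapped the untreated ones, and 18 h replicate 1 again stood above the rest. Hspa2 rose by 1.22 (SE 0.29, adjusted p = 0.0384) at 2 h, 2.32 (adjusted p = 0.000133) at 6 h and 2.35 (adjusted p = 8.02e-05) at 18 h, or 2.34-fold, 5.00-fold and 5.09-fold. Its second probe gave 1.20 (adjusted p = 0.0353), 2.08 (adjusted p = 0.000168) and 2.26 (adjusted p = 6.04e-05), where 2.56%, 27.2% and 32.3% of the 20029 kept probes passed in either direction at 2 h, 6 h and 18 h.

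Dnajb1 encodes the main heat-inducible J-domain partner of Hsp70. Its signal was 10.42, 10.27 and 10.08 at 0 h, 11.30, 11.23 and 11.33 at 2 h, 11.39, 11.33 and 11.46 at 6 h, and 11.75, 10.64 and 11.26 at 18 h. Treated arrays all lay above untreated ones, tightly together at 2 h and 6 h and spread at 18 h, where replicate 2 was lowest. Dnajb1 rose by 1.03 (SE 0.22, adjusted p = 0.023), 1.14 (adjusted p = 0.00194) and 0.96 (adjusted p = 0.00429) at the 3 times. The change of 0.11 at 6 h against 2 h did not pass (adjusted p = 0.792).

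The calls at 2 h rest on few arrays. With 0 h replicate 3, 2 h replicate 1 or 2 h replicate 2 left out, 0 of the 9 genes passed at 2 h. Without 2 h replicate 3, 1 passed (Hspa1b). Without 0 h replicate 1 or 6 h replicate 1, 2 passed (Hspa1b and Dnajb1). Without 6 h replicate 2 or 6 h replicate 3, Hspa2 alone was lost. The signs did not change, and the changes ranged over these omissions from 1.80 to 2.48 for Hspa1a, 1.76 to 2.33 for Hspa1b, 0.95 to 1.46 for Hspa2 and 0.94 to 1.11 for Dnajb1. Over 24 alternative fits, Hspa1a passed at 2 h in 13, Hspa1b in 19, Hspa2 in 14 and Dnajb1 in 20. Hspa2 at 2 h also did not pass with no filter on dim probes (adjusted p = 0.0699) or with only the compared groups fitted (adjusted p = 0.0535). At 6 h and 18 h, Hspa1a, Hspa1b, Hspa2 and Dnajb1 passed in all 24 alternative fits.

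Between 2 h and 6 h the 3 Hsp70 genes rose further, as read by the brightest probe of each. At 6 h against 2 h, Hspa1a rose by 1.53 (adjusted p = 0.0496), Hspa1b by 1.24 (adjusted p = 0.0428) and Hspa2 by 1.10 (adjusted p = 0.0273). They were 3 of 9 genes, against 7.7% of all genes that rose and 5.37% that fell. These 3 calls were all lost without any 1 of 2 h replicates 1, 2 and 3 or 6 h replicates 1 and 2. Leaving out the first or the third 0 h array, or the third 6 h array, ended the call for Hspa1a alone. Leaving out 18 h replicate 2 ended it for Hspa1a and Hspa1b. Hspa1a also did not pass without background correction (1.14, adjusted p = 0.0521) or as the mean of its kept probes (0.76, adjusted p = 0.155). Of the 24 alternative fits, Hspa1a passed in 10, Hspa1b in 17 and Hspa2 in 18. The dim second Hspa1a probe gave -0.01 (adjusted p = 0.983) and the second Hspa2 probe 0.89 (adjusted p = 0.0574). None of the 4 genes passed at 18 h against 6 h, with changes of -0.10 for Hspa1a, 0.33 for Hspa1b, 0.03 for Hspa2 and -0.18 for Dnajb1 (adjusted p = 0.63 to 0.972).

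**Figure D2:**
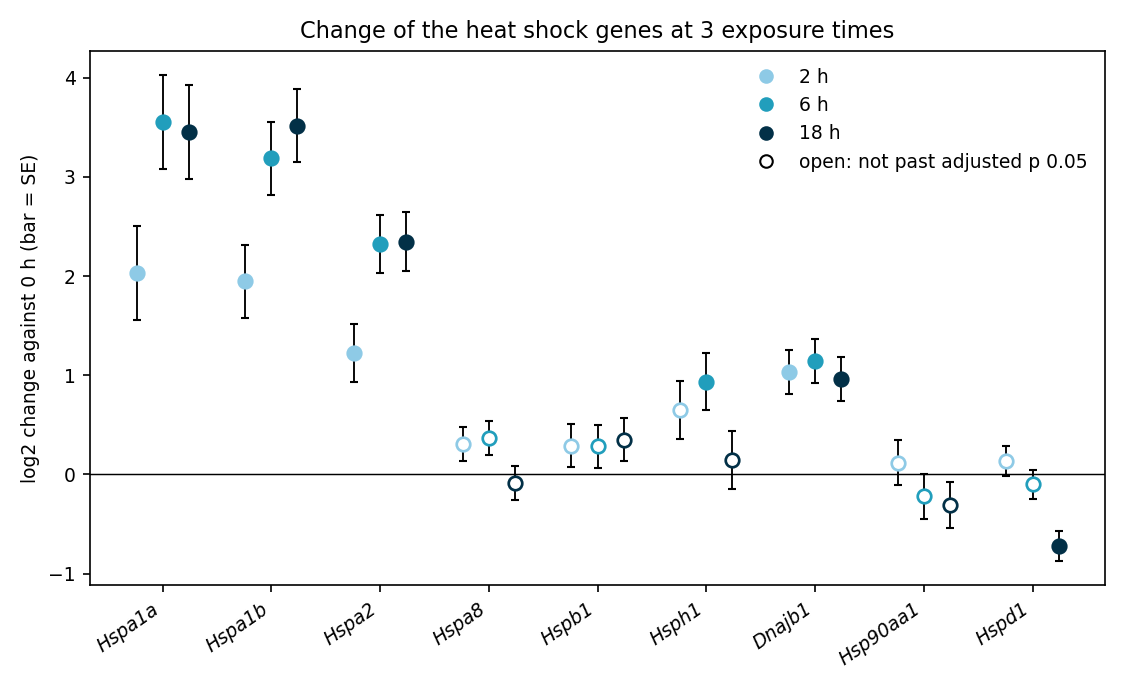
Log2 change against 0 h (vertical axis, with its SE as the bar) of the 9 heat shock genes at 2 h, 6 h and 18 h. Filled points passed an adjusted p under 0.05 and open points did not. Hspa1a, Hspa1b, Hspa2 and Dnajb1 are filled at all 3 times, Hsph1 at 6 h alone and Hspd1 at 18 h alone.

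Hsph1 encodes Hsp110, the exchange factor that releases nucleotide from Hsp70. Its signal was 10.84, 9.53 and 10.50 at 0 h, 11.08, 10.80 and 10.94 at 2 h, 11.35, 11.26 and 11.07 at 6 h, and 10.84, 9.98 and 10.49 at 18 h. The 6 h arrays lay above all untreated arrays, the 2 h and 18 h arrays overlapped them, and untreated replicate 2 was far below its group. Hsph1 rose by 0.94 at 6 h (SE 0.29, adjusted p = 0.0262), while the values at 2 h (0.65, adjusted p = 0.259) and 18 h (0.15, adjusted p = 0.73) did not pass. The 6 h call was lost without 0 h replicate 2 (0.55, adjusted p = 0.0869), 6 h replicate 1 (0.88, adjusted p = 0.0829) or 6 h replicate 2 (0.92, adjusted p = 0.069). All Hsph1 arrays at 18 h lay below those at 6 h, by -0.79 in the mean (adjusted p = 0.0986), and this passed without 0 h replicate 2 (adjusted p = 0.0273).

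Hspa8 encodes the constitutive Hsc70, the housekeeping Hsp70 of the cytosol. Its signal was 13.87, 13.54 and 13.68 at 0 h, 14.07, 13.96 and 13.97 at 2 h, 14.10, 14.08 and 14.001 at 6 h, and 13.58, 13.30 and 13.94 at 18 h. The 2 h and 6 h arrays lay above the untreated arrays by a small margin, and the 18 h arrays overlapped them. No change against 0 h passed: 0.30 (adjusted p = 0.389), 0.37 (adjusted p = 0.12) and -0.09 (adjusted p = 0.721). Its other 2 kept probes gave 0.27 and 0.24 at 2 h, 0.24 and 0.37 at 6 h, and -0.13 and -0.49 at 18 h, none of which passed. The third probe at 18 h against 6 h fell by 0.86 (adjusted p = 0.0185, where 9.15% of kept probes passed), while the first gave -0.45 (adjusted p = 0.103).

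Hspb1 encodes a small heat shock protein that holds unfolded clients without ATP. Its signal was 11.52, 11.32 and 11.17 at 0 h, 11.60, 11.79 and 11.48 at 2 h, 11.82, 11.71 and 11.34 at 6 h, and 12.01, 11.88 and 11.17 at 18 h. The groups overlapped at every time, and 18 h replicate 3 lay beside the untreated arrays. None of the changes passed, at 0.29 (adjusted p = 0.547), 0.29 (adjusted p = 0.351) and 0.35 (adjusted p = 0.228). Without 18 h replicate 3 the last was 0.61 and passed (adjusted p = 0.0261).

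Hsp90aa1 encodes the inducible cytosolic Hsp90, which matures kinases and steroid receptors. Its signal was 12.88, 12.20 and 12.85 at 0 h, 12.79, 12.67 and 12.83 at 2 h, 12.60, 12.09 and 12.58 at 6 h, and 11.94, 12.64 and 12.43 at 18 h. The groups overlapped, and the changes were 0.12 (adjusted p = 0.86), -0.22 (adjusted p = 0.506) and -0.31 (adjusted p = 0.319). Its second probe gave 0.21, 0.24 and -0.02, with the opposite sign at 6 h.

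Hspd1 encodes Hsp60, the chaperonin that folds imported proteins in the mitochondrial matrix with its lid Hspe1, and the genes of the pair follow each other in the RefSeq order with 0 genes between. Its signal was 13.14, 12.79 and 13.22 at 0 h, 13.28, 13.13 and 13.16 at 2 h, 12.98, 13.01 and 12.86 at 6 h, and 12.24, 12.35 and 12.41 at 18 h. The 18 h arrays lay below all other arrays, and the groups before that overlapped the untreated one. Hspd1 fell by 0.72 at 18 h against 0 h (SE 0.15, adjusted p = 0.00223), while 0.14 at 2 h (adjusted p = 0.707) and -0.10 at 6 h (adjusted p = 0.655) did not pass. Its second probe fell by 1.26 at 18 h (adjusted p = 0.000615). The partner Hspe1 fell by 0.40 at 18 h against 0 h (adjusted p = 0.0496).

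At 18 h against 6 h Hspd1 fell by 0.62 (adjusted p = 0.0199), and none of the other 8 genes passed. Hsph1 passed as well with array weights (-0.92, adjusted p = 0.0236) or without 0 h replicate 2 (-0.79, adjusted p = 0.0273), and Hspa8 without 18 h replicate 3 or without background correction. Over all genes in that comparison 6.16% rose and 4.98% fell. The second Hspd1 probe fell by 0.95 (adjusted p = 0.0147). Leaving out 6 h replicate 1 (adjusted p = 0.0648) or 6 h replicate 2 (adjusted p = 0.0679) ended the call for the first probe, and so did leaving out 18 h replicate 2 (adjusted p = 0.0548).

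The direction of the small changes depended on the scaling. With each array scaled to its 75th percentile in place of quantile normalization, the median over all genes moved by -0.11 at 6 h and -0.16 at 18 h against 0 h. The share of called genes that rose was then 43.1% at 18 h, against 57.1% with quantile normalization. Under that scaling Hspa8 at 6 h (-0.05), Hspb1 at 18 h (-0.01) and Hsph1 at 18 h (-0.11) turned sign, without passing. At 18 h Hspa8 fell by 0.69 (adjusted p = 0.013) and Hsp90aa1 by 0.76 (adjusted p = 0.0328), which relative to the median of all genes is -0.57 and -0.64. Hsph1 at 6 h no longer passed (0.78, adjusted p = 0.0827). The rises of Hspa1a, Hspa1b, Hspa2 and Dnajb1 against 0 h and the fall of Hspd1 at 18 h kept their sign and their call.

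Probes of the same gene did not always move alike. The second Hspa1a probe, detected on 0 arrays at 0 h and 2 h and on 2 of 3 at 6 h and at 18 h, gave 0.49 (adjusted p = 0.293), 0.48 (adjusted p = 0.136) and 0.82 (adjusted p = 0.0133) against 0 h. At 0 h it was not well above background, so its rise at 18 h is given as at least 1.24-fold. This lower bound set the mean 18 h signal against the dimmest detected signal or the probe's own at 0 h, whichever was higher on each array. The 18 h mean includes an array on which the probe was not detected, so the bound is approximate. The third Hspa1a probe, the second probes of Hspa1b and Hspb1 and the third of Hsp90aa1 were detected on 0 of 12 arrays and carry no information on a change. Over the 15 kept probes, 5 rose at 2 h, 6 rose at 6 h, and 6 rose and 2 fell at 18 h, where 2.56%, 27.2% and 32.3% of all kept probes passed in either direction. The second Hspa1a probe and the first Hspa1b probe met the filter only through treated arrays. These counts of rises are therefore partly set by the filter.

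**Figure D3:**
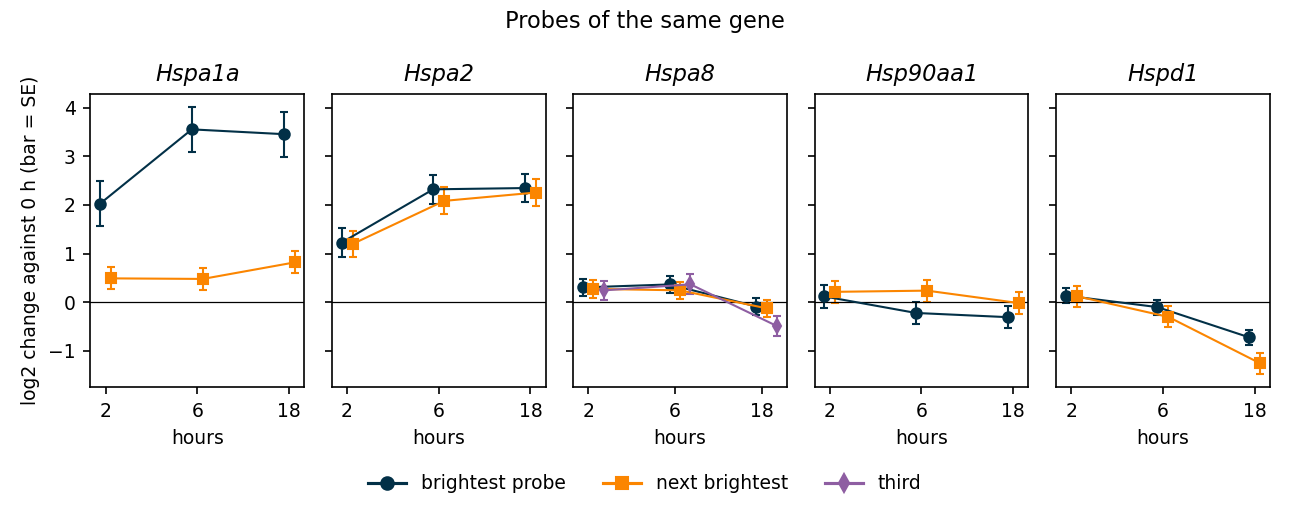
Log2 change against 0 h (vertical axis, with its SE) at 2 h, 6 h and 18 h on evenly spaced positions, for the 5 genes with more than 1 kept probe, ordered by brightness. The 2 Hspa2 probes run together, the dim Hspa1a probe stays below 1 where the bright one exceeds 3, and both Hspd1 probes end below 0.

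Likeness between the genes is given as Pearson's r of log2 signal over the 12 arrays, which fall into 4 exposure groups and so share their time course. Hspa1a had the widest range of group means, and the genes most like it among 11444 others were Hspa1b (r = 0.988), Hspa2 (r = 0.983), the UFM1 protease gene Ufsp1 (r = 0.980), the small GTPase gene Rab43 (r = 0.980) and Map7d1 (r = 0.977). Dnajb1 followed Hspa2 at r = 0.844, and Hsph1 followed Hspa8 at r = 0.812. Against Hsp90aa1, Hspa2 gave r = -0.62.

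Of 105 further chaperone and heat shock genes in 9 lists, 97 were on the array and 82 were tested. At 2 h against 0 h, 2 rose and 3 fell, at 6 h 8 rose and 5 fell, and at 18 h 12 rose and 12 fell. In either direction 6.1% passed at 2 h, 15.9% at 6 h and 29.3% at 18 h, against 3.48%, 31.3% and 36.6% of all tested genes, and those shares over all genes are the background for every list count that follows. The medians were 0.02, -0.04 and -0.06. Genes moved in both directions at each time. With each of the 12 arrays left out in turn, an alternative added after these values were seen, 16 of the 38 calls named for these lists held in all 12 fits and 22 were lost in 1 or more, and no sign turned. Those that held in all 12 were Hspa1l, Dnajb4, Hsbp1, Hspa9 and Unc45a at both 6 h and 18 h, Dnajb12, Hspb6 and Sqstm1 at 6 h, and Hspa4l, Dnajb2 and Ppid at 18 h. The least stable calls were Dnajb4 at 2 h (held in 1 of 12), St13 (2 of 12) and Hspe1 (3 of 12) at 18 h, Dnajb12 (3 of 12), Hsbp1 (4 of 12), P4ha1 (4 of 12) and Hspb6 (5 of 12) at 2 h, and Chordc1 (5 of 12) at 18 h.

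**Figure D4:**
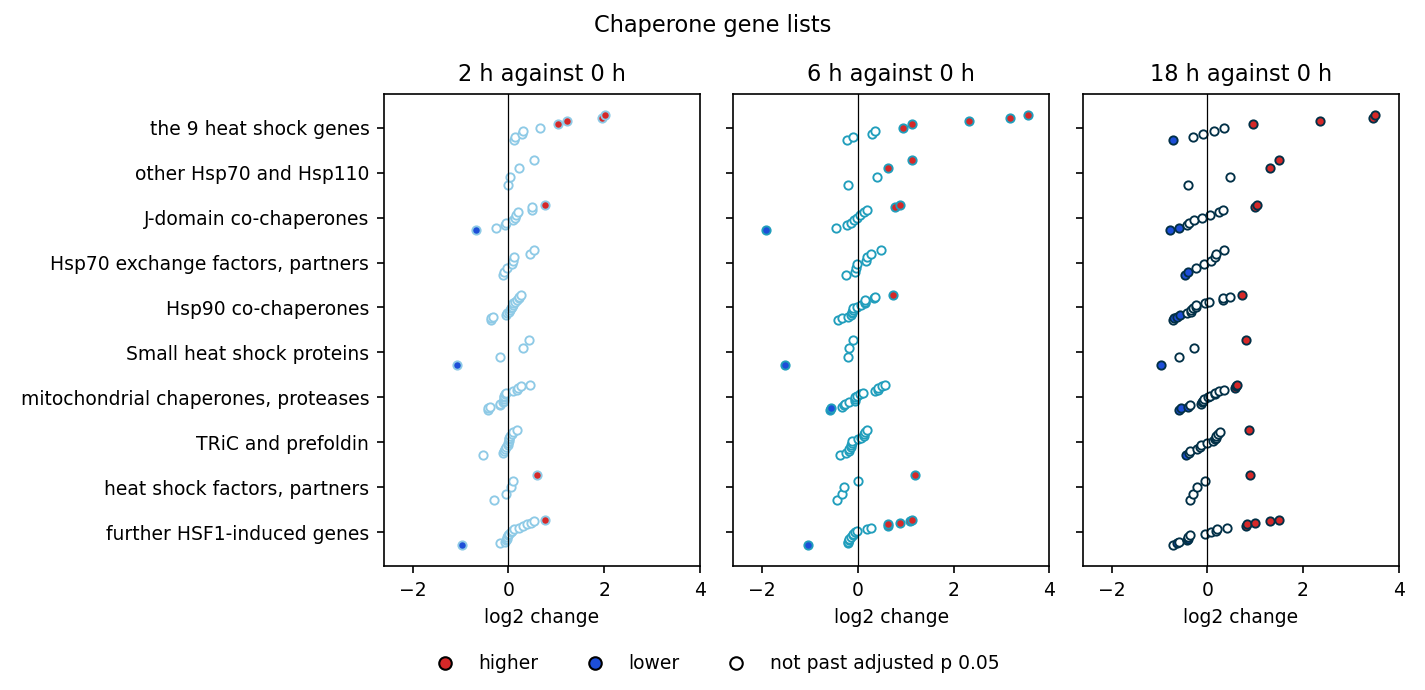
Log2 change (horizontal axis) of each tested gene in the 9 heat shock genes and the 9 further lists, at 2 h, 6 h and 18 h against 0 h. Red points rose, blue points fell and open points did not pass. The 3 points beyond 2 at 6 h and 18 h are Hspa1a, Hspa1b and Hspa2.

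Among 4 other tested members of the Hsp70 and Hsp110 families, 0 passed at 2 h and 2 rose at both 6 h and 18 h. The list had 7 genes on the array. Hspa1l, Hspa4l and Hspa12a were detected on 0 arrays at 0 h, so the filter kept them through treated arrays alone. The count of rises is therefore partly set by the filter. Hspa1l, a germ cell Hsp70 beside Hspa1a, was not well above background on the 0 h arrays and rose by at least 1.51-fold at 6 h (adjusted p = 0.00109) and at least 1.94-fold at 18 h (adjusted p = 0.000129). Hspa4l, an Hsp110 relative, likewise rose by at least 1.36-fold (adjusted p = 0.0272) and at least 2.15-fold (adjusted p = 0.000303). The other 2 did not pass at any time.

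Among 11 J-domain co-chaperones, 1 rose and 1 fell at 2 h, 2 rose and 1 fell at 6 h, and 2 rose and 2 fell at 18 h. The shares that passed at 6 h and 18 h, 27.3% and 36.4%, were near those over all genes. Dnajb4, a heat-inducible relative of Dnajb1, rose by 0.75 (adjusted p = 0.0497), 0.88 (adjusted p = 0.00401) and 1.00 (adjusted p = 0.00147). Dnajb2 rose by 0.78 at 6 h and 1.04 at 18 h. Dnajb12, a J-domain protein of the endoplasmic reticulum membrane, fell by 0.68, 1.91 (adjusted p = 1.49e-05) and 0.60 at the 3 times, and Dnajc7 fell by 0.77 at 18 h.

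Among 8 exchange factors and other Hsp70 partners, 0 passed at 2 h and 6 h, and 2 fell at 18 h, Bag4 by 0.47 and the Hsp70-interacting protein gene St13 by 0.40. Of 16 tested Hsp90 co-chaperones, 0 passed at 2 h, 1 rose at 6 h, and 1 rose and 3 fell at 18 h. Unc45a, which brings Hsp90 to myosin, rose by 0.74 at 6 h and 0.72 at 18 h, while the cyclophilin gene Ppid fell by 0.69 and Chordc1 by 0.64 at 18 h. Of 14 subunits of the cytosolic chaperonin TRiC and of prefoldin, 0 passed at 2 h and 6 h, and at 18 h Cct6b rose by 0.87 and Cct3 fell by 0.45.

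Of 4 small heat shock protein genes, 1 fell at 2 h and at 6 h, and 1 rose and 1 fell at 18 h. Hspb6 fell by 1.08, 1.51 and 0.96 at the 3 times, and Hspb8, a partner of Bag3, rose by 0.82 at 18 h. Of 17 mitochondrial chaperones and proteases, 0 passed at 2 h, 2 fell at 6 h, and 3 rose and 3 fell at 18 h. The shares that passed at 6 h and 18 h were 11.8% and 35.3%, no higher than over all genes. Hspa9, the mitochondrial Hsp70, fell by 0.58 at 6 h (adjusted p = 0.00738) and 0.60 at 18 h (adjusted p = 0.00481), and the protease subunit gene Clpp fell by 0.54 at 18 h. The protease genes Htra2 and Afg3l2 rose by 0.63 and 0.59 at 18 h, and Spg7 fell by 0.57 at 6 h.

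Of 5 tested heat shock factors and partners, 1 rose at each time. It was Hsbp1, whose product binds the trimer region of HSF1, and it rose by 0.59 (adjusted p = 0.0386), 1.19 (adjusted p = 9.25e-05) and 0.90 (adjusted p = 0.000396), while Hsf2 gave 0.01 at 6 h and -0.21 at 18 h without passing. Of 17 further genes known to be induced through HSF1 on heat stress, 1 rose and 1 fell at 2 h, 5 rose and 1 fell at 6 h, and 5 rose and 2 fell at 18 h. The shares that passed, 11.8%, 35.3% and 41.2%, stood beside 3.48%, 31.3% and 36.6% of all genes. Given above from this list are Dnajb4, Hspa1l, Hspa4l and Hspb8, which rose, and Chordc1 and Hspe1, which fell at 18 h. Hspa1l and Hspa4l were kept by the filter through treated arrays alone. The autophagy receptor gene Sqstm1 rose by 1.08 at 6 h (adjusted p = 0.00127), and the collagen hydroxylase gene P4ha1 fell by 0.98 at 2 h and 1.05 at 6 h. Bag3, the heat-inducible exchange factor, gave 0.20 at 6 h (adjusted p = 0.45) and 0.19 at 18 h (adjusted p = 0.458), and the Hsp70 to Hsp90 adaptor gene Stip1 gave 0.27 (adjusted p = 0.19) and 0.09 (adjusted p = 0.695).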

How the data were processed

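RNA from 12 samples of E14 cells was hybridised, per the labels' protocols, as biotin-labelled cRNA to Illumina bead arrays, 3 for each exposure time. The deposited table holds unnormalized signal intensity per probe with a detection p-value, both written by the authors with GenomeStudio (version not stated), per the submitters' processing notes and the file headers. A second deposited table holds intensity values that are quantile normalized by their distribution. No genome build is given for the array values in the sources used here, and the promoter windows are those of RefSeq on GRCm38.p6.

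Here the intensities were background-corrected with limma's normexp, using 936 negative control beads recovered from steps of the deposited detection p-values (offset 16), quantile normalized and put on the log2 scale. Probes with a detection p under 0.05 on at least 3 of 12 arrays were kept (20029 of 45281). Genes came from the platform annotation, updated through gene IDs (34885 probes with 1 gene, 18 with several, 10378 with none), and each gene was represented by its probe of highest mean. Changes were fitted with lmFit and eBayes (R 4.3.3, limma 3.58.1) over all 12 arrays, and p-values were adjusted over 11445 genes, or over 20029 probes where a further probe is named. Scripts were tested on simulated data. Alternatives covered background, scaling, filter, probe choice, weights, the replicate block and each array left out. From each list, up to 2 of the largest rises and 2 of the largest falls past the threshold were named at each time, and Hsf2, Bag3 and Stip1 were added after their values were seen. The genes and lists were chosen with earlier results of these data known. No 2 arrays held identical values.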

Additional observations from a re-analysis of the deposited data

How the results depend on the processing

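Each of the 5 counts of passing genes was recomputed under 12 other settings and with each of the 12 arrays left out. At 6 h and 18 h against 0 h the counts (5 and 5 of 9) stayed within 1.5 times. At 2 h against 0 h, 4 fell to 2 without background correction, 2 with the authors' normalized table and 2 with no filter on dim probes, and ranged from 0 to 4 over omitted arrays. The authors' table and the setting without background correction gave nearly the same values (447 calls over all genes at 2 h in both). They are therefore not separate checks. At 6 h against 2 h, 3 fell to 0 with no filter and ranged from 0 to 3. At 18 h against 6 h, 1 became 2 without background correction, with the authors' table, with array weights and with the replicate block, and ranged from 0 to 2. Over omitted arrays the 6 h and 18 h counts against 0 h ranged from 4 to 5 and 5 to 6. Over all genes, 398 calls at 2 h became 675 under array weights and 211 when other groups were left out of the fit, and 126 to 568 over omitted arrays. Calls at 6 h against 2 h (1496) became 2852 with array weights, and 535 to 1805 over omitted arrays, and those at 18 h against 6 h (1275) ranged from 543 to 1551. Fitting each probe on its own gave 5440 calls at 6 h and 6472 at 18 h over 20029 probes.

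Signs turned only for changes that did not pass. With 75th percentile scaling these were Hspa8 at 6 h against 0 h (-0.047) and 6 h against 2 h (-0.21), Hspb1 (-0.014) and Hsph1 (-0.11) at 18 h against 0 h, Dnajb1 at 6 h against 2 h (-0.041), and Hspa2 (-0.10) and Hspb1 (-0.080) at 18 h against 6 h. With the mean of a gene's probes they were Hsp90aa1 at 6 h against 0 h (0.0086) and Hspa1a at 18 h against 6 h (0.12). With array weights they were Hsp90aa1 at 2 h (-0.014) and Hsph1 at 18 h (-0.22) against 0 h, Hspb1 at 6 h against 2 h (0.026), and Hspa2 (-0.15) and Hspb1 (-0.029) at 18 h against 6 h. Over omitted arrays the ranges that cross 0 were -0.10 to 0.24 for Hsp90aa1 at 2 h, -0.23 to 0.42 for Hsph1 and -0.26 to 0.064 for Hspa8 at 18 h against 0 h, and -0.10 to 0.14 for Hspb1 at 6 h against 2 h. At 18 h against 6 h they were -0.25 to 0.12 for Hsp90aa1, -0.71 to 0.32 for Hspa1a, -0.35 to 0.22 for Hspa2, -0.10 to 0.32 for Hspb1, -0.066 to 0.59 for Hspa1b and -0.44 to 0.11 for Dnajb1. The cause was not tested.

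Arrays with the same replicate number deviated from their group means together at r = 0.066 to 0.487, over 0.1 in 16 of 18 pairs, and 12 of 12 arrays were most like their own number, a hint from the data and not from the labels. With the replicate block Hsph1 also passed at 18 h against 6 h (adjusted p = 0.0267), and calls over all genes were 748 at 2 h against 0 h and 2074 at 18 h against 6 h. Dim probes limit the sizes given for Hspa1a and Hspa1b, whose 0 h signals lay near background.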
